A study of Homo sapiens with 16 samples.

Results

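ACTA2-gated cells are the cells of the kidney organoid single-cell libraries that carried transcripts of smooth muscle α-actin together with other genes of the vessel wall. The cells were chosen by their own transcript counts, so the gate genes are no finding. A barcode with over 500 detected genes was kept if it held at least 1 unique molecular identifier (UMI, a count of 1 captured mRNA molecule) of ACTA2 and at least 1 UMI in 2 or more of 5 companion genes, GJA4, ESAM, ACTG2, NOTCH3 and RGS5. These rules kept 681 of 35066 cells, 252 of 11906 in the vehicle control (VC) library and 429 of 23160 in the TNFα library. All organoids came from UM77-2, a human embryonic stem cell line. VC organoids received the vehicle alone, TNFα organoids received TNFα at 5 ng/ml for 24 h, and whole wells of both were collected on day 24 and dissociated with a cold active protease. Each condition is 1 library of pooled organoids from 1 cell line, so no test between conditions is possible and every interval below covers counting error only. Bulk RNA of isolated spheroids was used beside the cells: set 1 has 1 library each on days 21, 25 and 29, set 2 has 2 libraries on each of these days, and the TNF set has VC and TNFα (5 ng/ml) libraries labelled 24h and 48h, 1 of each, all collected on day 25. Treatment of the TNF set began on day 23. The paper's methods give 24 or 48 h of TNFα before collection on day 25 for almost all TNFα samples. The time from treatment to collection of the libraries labelled 24h is therefore unclear. The VC library holds 100623461 UMIs and the TNFα library 91152175.

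Mural cells are the smooth muscle cells and pericytes that wrap blood vessels. Smooth muscle cells contract through filaments of α- and γ-smooth muscle actin that are bound by transgelin, calponin, tropomyosin and caldesmon, and myosin light chain kinase starts the contraction. Pericytes share NOTCH3, PDGFRB and RGS5 with them and sit on capillaries, and in the kidney the mesangial cells of the glomerulus are their relatives. Many contractile genes carry a CArG box in their promoter, the element bound by serum response factor. TNFα acts through its receptor TNFRSF1A on NF-κB, which binds kappa B motifs and raises chemokines, adhesion molecules and its own inhibitors.

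The sequences that carry both programs are shown first. RefSeq promoters (GRCh38.p14) of 250 bases before to 50 bases after the start were found for 18 of the 24 gate and contractile genes and for 21 of 30 NF-κB target genes, and both strands were searched. A CArG box was in 5 of the 18 (27.8%), namely ACTG2, ACTN1, FLNA, MYLK and SMTN, and in 454 of all 35116 promoters (1.29%). A kappa B motif was in 16 of the 21 (76.2%) and in 3956 of all promoters (11.3%). A listed gene counted as a match if any of its promoters matched, while all promoters were counted singly. The shares of genes and of promoters are therefore not in the same unit, and the difference between them was not tested. The genes below have the most UMIs in the gated cells among those with a match, and 150 bases before the start are printed 5′ to 3′ on the gene's strand with the match in capitals. FLNA (filamin A, an actin crosslinker) lies on the minus strand at chrX:154374635-154374784, ACTG2 (γ-smooth muscle actin) on the plus strand at chr2:73892858-73893007 and MYLK (myosin light chain kinase) on the minus strand at chr3:123620549-123620698.
FLNA: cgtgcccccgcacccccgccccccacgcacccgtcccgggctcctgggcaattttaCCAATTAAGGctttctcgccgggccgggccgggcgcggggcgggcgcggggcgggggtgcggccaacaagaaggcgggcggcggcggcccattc
ACTG2: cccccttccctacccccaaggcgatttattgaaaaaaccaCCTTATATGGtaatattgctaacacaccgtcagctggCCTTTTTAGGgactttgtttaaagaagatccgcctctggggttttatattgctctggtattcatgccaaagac
MYLK: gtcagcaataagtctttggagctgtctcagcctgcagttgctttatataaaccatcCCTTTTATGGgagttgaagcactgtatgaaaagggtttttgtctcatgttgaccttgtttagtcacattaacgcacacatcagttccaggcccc
The MYLK window lies inside the gene as GENCODE places it (123610049 to 123884332), so it is the start of a short internal transcript and not of the full kinase. The RefSeq starts of ACTG2 and IL32 also lie inside the longest GENCODE span of these genes. ACTG2 was the only 1 of these 3 with a pair of CArG boxes in the window, which begin 110 and 73 bases before its start. IL32 (a cytokine) lies on the plus strand at chr16:3065253-3065402, NFKBIA (the inhibitor of NF-κB) on the minus strand at chr14:35404750-35404899 and VCAM1 (an adhesion molecule) on the plus strand at chr1:100719592-100719741. The IL32 stretch holds 2 overlapping kappa B matches.
IL32: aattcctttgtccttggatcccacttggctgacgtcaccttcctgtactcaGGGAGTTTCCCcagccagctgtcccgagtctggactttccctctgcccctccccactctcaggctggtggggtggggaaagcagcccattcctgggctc
NFKBIA: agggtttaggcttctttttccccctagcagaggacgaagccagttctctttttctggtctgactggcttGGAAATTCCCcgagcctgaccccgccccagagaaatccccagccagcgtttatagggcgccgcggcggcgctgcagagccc
VCAM1: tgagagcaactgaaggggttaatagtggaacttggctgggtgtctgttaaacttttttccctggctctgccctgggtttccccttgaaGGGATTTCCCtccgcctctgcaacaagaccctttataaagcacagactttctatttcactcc
A match is a description of letters in a window, and these data hold no binding measurement.

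The gated cells made up 2.12% of the VC library (exact 95% interval 1.87 to 2.39) and 1.85% of the TNFα library (1.68 to 2.03). The 2 intervals overlap, and the libraries differ in depth. A gated cell held a median of 12386.5 UMIs in VC and 7001 in TNFα, against 6272.5 and 2573 in all other cells, and a deeper cell has more chances to show 3 genes. When every cell was thinned to 1500 UMIs, the share was 0.119% and 0.19%. Sets of 5 other cells per gated cell with the same depth, 1260 in VC and 2145 in TNFα, are therefore given below as depth-matched cells. The libraries share 74 barcodes, and no barcode was gated in both. The deposited matrices held 12494 VC and 23160 TNFα barcodes of 36601 genes.

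The gate itself was carried by a few of its genes. Values of gate genes are a description, since they chose the cells. ACTA2 (ENSG00000107796, chromosome 10, 88935074 to 88991339) stood at a median of 4 UMIs per gated cell in VC and 3 in TNFα, with up to 205 and 109 in single cells. ACTG2 (ENSG00000163017, chromosome 2, 73892314 to 73919865) was seen in 71.8% and 71.1% of gated cells, and NOTCH3 (ENSG00000074181, chromosome 19, 15159038 to 15200995), a receptor of the vessel wall, in 96.4% and 73.9%. RGS5 (ENSG00000143248, chromosome 1, 163111121 to 163321791), a pericyte G protein regulator, was seen in 24.6% and 47.3%, and ESAM (ENSG00000149564, chromosome 11, 124752583 to 124762290), a junction molecule, in 22.2% and 17.2%. GJA4 (ENSG00000187513, chromosome 1, 34792999 to 34795747), the gap junction protein connexin 37, was seen in 1 VC and 10 TNFα gated cells. ACTG2 and NOTCH3 were the only companions seen in 152 gated cells of the VC library (60.3%) and in 168 of the TNFα library (39.2%).

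ACTA2 UMIs were also seen in cells of another type. Of the 1368 VC and 2593 TNFα cells that met a podocyte rule (NPHS1 and at least 2 of 5 other podocyte genes, among them PODXL, SYNPO, PTPRO and CLIC5), a type that should lack smooth muscle actin, 8.26% and 22.6% held an ACTA2 UMI at median depths of 6720.5 and 3437 UMIs. Thinned to 1500 UMIs, ACTA2 was seen in 2.93% and 12.3% of these podocyte-rule cells and in 50.4% and 58.5% of gated cells. Every gated cell was chosen for an ACTA2 UMI, and the podocyte-rule cells here leave out gated cells. The higher share in gated cells was therefore fixed by the gate and is a description only. Among all other cells, the ACTA2 level was 59.96 CPM (UMI counts scaled to a common total) in VC and 146 CPM in TNFα. The share of podocyte-rule cells with an ACTA2 UMI was higher in the TNFα library at equal depth, and the part of free RNA or doublets in the counts of gated cells was not tested.

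The label was checked against gene lists that the gate did not use. The 18 listed contractile members summed to 7010 CPM in VC gated cells against 3351 in other cells, and to 7902 against 4446 CPM in TNFα. The same sum was 5269 and 6218 CPM in stromal-rule cells and 4919 and 5728 CPM in skeletal-rule cells, so it does not single out a mural cell. Of the pericyte list, 2 of 9 members with enough UMIs were at least 2-fold higher (0.456% of all genes tested were), KCNJ8, a potassium channel of pericytes (7.69 against 3.58 CPM in VC and 8.91 against 3.79 in TNFα), and ADGRF5 (4.99 against 1.71 and 3.13 against 1.49). Against depth-matched cells KCNJ8 was 1.88-fold in VC, under the fold, and no pericyte gene with enough UMIs was past it in both libraries. The pericyte markers HIGD1B and COX4I2 had 2 and 6 UMIs in VC gated cells and 2 and 0 in TNFα, while 7 of the 9 were above 1 in both libraries, with median log2 ratios of 0.79 and 0.47. The summed pericyte list stood at 226 against 131 CPM in VC and 174 against 145 CPM in TNFα, and its most abundant gene was PDGFRB, with 477 UMIs. The same sum was 217 and 128 CPM in stromal-rule cells, 108 and 125 in skeletal-rule cells and 180 and 202 in podocyte-rule cells. In TNFα it was thus higher in podocyte-rule than in gated cells, so the sum is not particular to gated cells. MYOCD, the coactivator of smooth muscle genes, had 8 UMIs in VC and 10 in TNFα gated cells. Endothelial cells share ESAM and GJA4 with mural cells. Of their markers, PECAM1 had 0 UMIs in VC and 4 in TNFα gated cells, CDH5 had 1 and 5, and the 12 listed genes summed to 234 against 203 CPM in VC and 200 against 213 CPM in TNFα, with EGFL7 the most abundant at 943 UMIs. Against all other cells none of the 6 endothelial genes with enough UMIs was at least 2-fold higher in both libraries. EMCN, endomucin, had 83 UMIs in VC and 60 in TNFα gated cells, 4.51-fold (3.30 to 6.15) and 3.05-fold (2.17 to 4.25) the level of depth-matched cells. EMCN was the only listed endothelial gene past the fold there, beside 127 of all genes. The list's median log2 ratios to depth-matched cells were 0.04 and -0.11, and CLDN5 was lower, at 0.749 and 0.413. The part of endothelial cells in these values was not tested. The immune genes PTPRC and CD14 were at 0, and the 5 listed immune genes summed to 1.87 and 2.65 CPM, beside 4.17 and 3.61 CPM in other cells. The cells are therefore called ACTA2-gated cells here and are given no vessel cell name.

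TAGLN, which the gate did not use, places the cells just inside and just outside the gate. TAGLN stood at 1230 CPM in the 216 VC cells and 1355 CPM in the 380 TNFα cells with exactly 2 companions. It stood at 816 and 836 CPM in the 674 and 1726 cells that had ACTA2 and 1 companion, and at 69.1 and 127 CPM in the 521 and 440 cells with 2 or more companions and no ACTA2. The 36 and 49 cells with 3 or more companions had 865 and 787 CPM, below the cells with exactly 2 companions in both libraries and, in TNFα, below the cells just outside the gate. The lowest TAGLN levels of these sets were in the cells with no ACTA2 UMI.

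**Figure D1:**
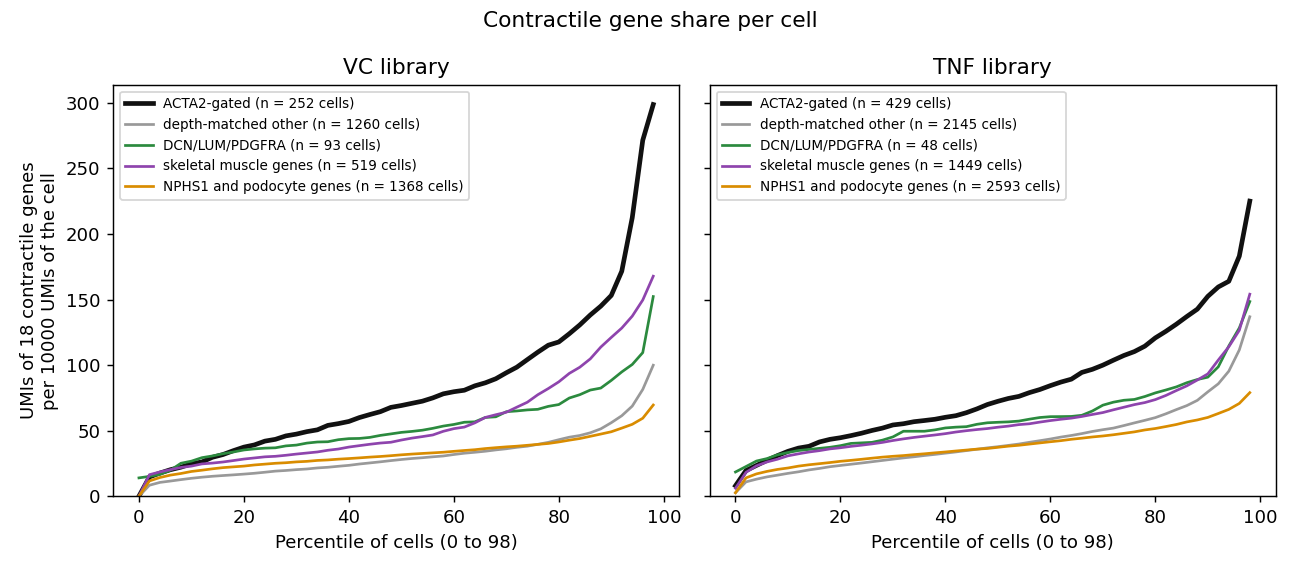
UMIs of the 18 contractile genes per 10000 UMIs of a cell (y axis) against the percentile of cells (x axis, 0 to 98) in the VC and TNFα libraries, 1 line per group of cells. The ACTA2-gated line has a median of 69.2 in VC and 72.4 in TNFα, and the depth-matched line has medians of 28.0 and 37.8.

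The plot of the contractile share per cell shows how the gated cells vary among themselves. The 18 contractile genes, none of which is in the gate, took a median of 69.2 of every 10000 UMIs in VC gated cells, with a middle range of 42.8 to 107 between the lower and upper quartile. In TNFα gated cells the median was 72.4 and the quartiles were 48.8 and 109. Depth-matched cells had medians of 28.0 and 37.8, so the upper quartile of these cells (39.0 and 54.8) lay below the gated median in both libraries. The groups overlap: the 10th percentile of the gated cells lay at 24.8 and 34.2, within the range of depth-matched cells. Cells that met a skeletal muscle rule (at least 3 of MYOD1, MYOG, MYH3, TNNT1, TNNI1, CHRNA1, KLHL41 and ACTA1) had medians of 42.8 and 52.6, and cells with DCN, LUM and PDGFRA UMIs, which mark stroma, had 48.7 and 56.4.

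Against all other cells, the gated cells had higher levels of smooth muscle genes. Of 16895 genes with at least 50 UMIs in each library, 77 (0.456%) were at least 2-fold higher in gated cells in both libraries and 459 (2.72%) were at least 2-fold lower, with the gate genes left out. The gated libraries hold 4808658 and 4153484 UMIs in all, and the median gene was at a log2 ratio of -0.11 in VC and -0.14 in TNFα. Of the contractile list, 8 of 18 genes were past the fold and 17 of 18 were above 1 in both libraries, with median log2 ratios of 1.35 and 0.85. TAGLN (ENSG00000149591, chromosome 11, 117199370 to 117207464), the actin-binding protein transgelin, had the most UMIs of the 8, with 1132 CPM in VC gated cells against 156 in other cells. In TNFα it had 1228 against 314 CPM, so that the ratio was 7.24 (7.02 to 7.47) in VC and 3.91 (3.80 to 4.03) in TNFα. CNN1, calponin, had 33.9 against 5.18 CPM and 34.2 against 9.38 CPM. MYL9, a regulatory light chain of smooth muscle myosin, had 495 against 193 and 505 against 235 CPM. MYH11, the smooth muscle myosin heavy chain and a gene of mature smooth muscle, was rare, with 32 UMIs in VC and 29 in TNFα gated cells, and stood at 6.65 against 0.668 and 6.98 against 1.59 CPM. MYL6 had the most UMIs of the list, at 2029 against 1468 and 2154 against 1543 CPM, and was not past the fold. The other members past the fold were PLN, KCNMB1, CSRP1 and ACTN1.

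**Figure D2:**
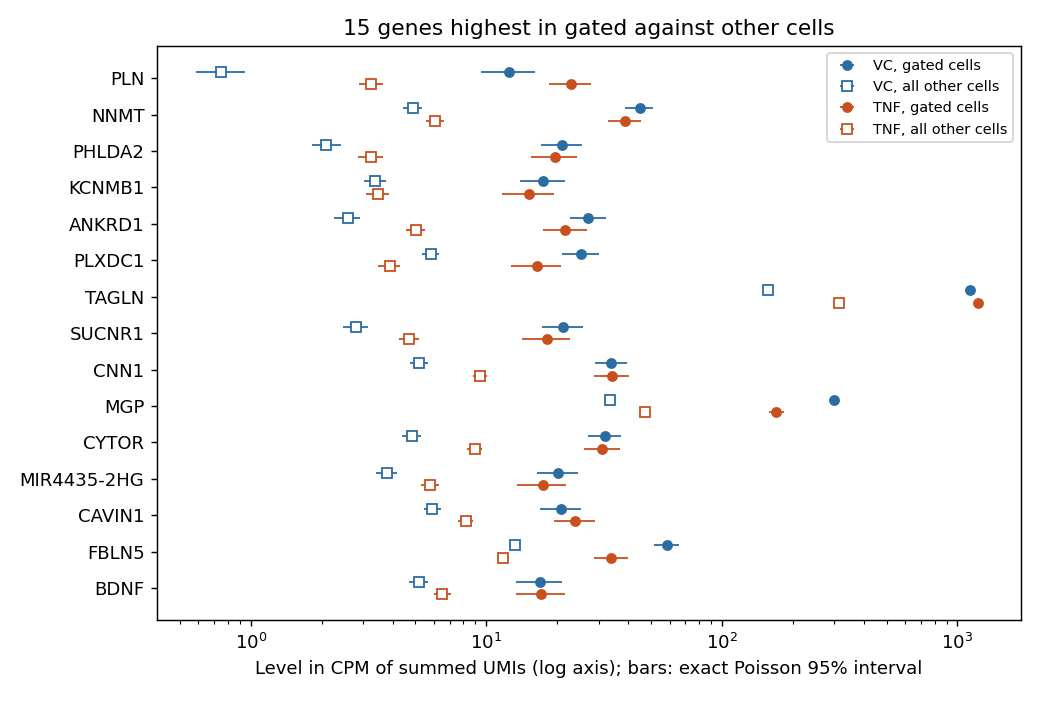
Levels in CPM of summed UMIs (x axis, log scale) of the 15 genes with the largest gated to other ratio in both libraries among those with at least 50 UMIs in the gated cells of each, filled circles for gated and open squares for other cells, blue for VC and orange-red for TNFα, with exact Poisson 95% intervals. Every filled point lies to the right of its open square, by 16.6-fold in VC and 7.03-fold in TNFα for PLN at the top and 3.26-fold and 2.62-fold for BDNF at the bottom.

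The plot of the 15 highest genes orders them by the weaker of both ratios, among genes with at least 50 UMIs in the gated cells of each library. MYH11, with fewer UMIs, is left out by this minimum although its ratios of 9.96 and 4.402 are larger than most of theirs. PLN (ENSG00000198523, chromosome 6, 118548296 to 118561716), phospholamban, which restrains the calcium pump of muscle, headed it with 60 UMIs and 12.5 CPM in VC gated cells against 0.751 in other cells, and 95 UMIs and 22.9 CPM against 3.25 in TNFα. KCNMB1, the β-subunit of the calcium-activated potassium channel of smooth muscle, had 17.5 against 3.37 and 15.2 against 3.46 CPM. NNMT, a nicotinamide methyltransferase, had 44.7 against 4.86 and 38.8 against 6.07 CPM, and ANKRD1, a muscle ankyrin repeat protein, had 27.0 against 2.58 and 21.7 against 5.02 CPM. MGP, matrix Gla protein, which inhibits calcification of vessel walls, had 299 against 33.5 CPM in VC and 170 against 47.0 in TNFα. FBLN5, the elastic fiber protein fibulin 5, had 58.2 against 13.2 and 33.9 against 11.8 CPM, and CAVIN1, a coat protein of caveolae, 20.8 against 5.91 and 23.8 against 8.17. SUCNR1, the succinate receptor, had 21.2 against 2.79 and 18.1 against 4.69 CPM, and BDNF, a neurotrophin, 16.8 against 5.17 and 17.1 against 6.52. PHLDA2, PLXDC1 and the long noncoding RNAs CYTOR and MIR4435-2HG were the remaining 4, with ratios between 2.998 and 10.01. CYTOR and MIR4435-2HG are near-identical copies of each other over part of their length, so their counts can be split between them. Against depth-matched cells all 15 ratios were 3.50 or higher in both libraries.

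Most listed neural genes and a few listed skeletal muscle genes were past the fold and lower in gated cells. Of the 9 genes of the neural list, 7 were at least 2-fold lower in both libraries, beside 2.72% of all genes tested, and all 9 were below 1, with median log2 ratios of -2.11 and -1.16. A low neural level was not particular to gated cells: the summed list stood at 473 and 547 CPM in gated cells, 1829 and 1001 in all other cells, and 449 and 456 in podocyte-rule cells. STMN2, a microtubule regulator of neurons, had 79.9 CPM in VC gated cells against 478 in other cells and 67.7 against 238 in TNFα. ELAVL4, a neuronal RNA-binding protein, had 11.2 against 59.96 and 12.04 against 25.4 CPM. Of the 13 skeletal muscle genes, 4 were past the fold and lower, against the same 2.72% (MYH3, CHRNA1, KLHL41 and PAX7), and median log2 ratios were -1.24 and -0.92. In VC the summed skeletal list was 209 CPM in gated cells, 347 in podocyte-rule and 414 in stromal-rule cells. In TNFα it was 311, 271 and 279 CPM, so a low level was not particular to gated cells in that library. The 10 genes with the strongest deficit were MAB21L2, NDST4, CHRNG, SLC17A6, INHBE, AL031666.3, AC073957.3, CADPS, MMRN1 and XKR7. Each rests on 10 or fewer UMIs in the gated cells of a library, so their ratios are poorly known. The glutamate transporter SLC17A6, for example, had 7 UMIs in VC and 2 in TNFα gated cells, with ratios of 0.138 (0.0554 to 0.286) and 0.131 (0.0158 to 0.478).

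Stromal genes were partly shared. Of the 13 stromal genes, LUM and MGP were past the fold and higher, beside 0.456% of all genes tested. In both libraries 9 were above 1, with median log2 ratios of 0.43 and 0.39. Against depth-matched cells 7 of the 13 were past the fold and higher, where 127 of all genes were. The number of genes tested against depth-matched cells is not given here. Counts past the fold against these cells therefore stand without a share of all genes and are a description. Against depth-matched cells the medians were 1.44 and 1.10, beside -0.06 and -0.09 for all genes tested. DCN, the proteoglycan decorin, had 165 against 75.6 CPM in VC and 178 against 96.6 in TNFα, and COL1A1, a fibrillar collagen chain, 958 against 517 and 1085 against 634. The stromal receptor PDGFRA had 80.3 against 76.8 and 55.6 against 65.9 CPM. Among gated cells, 4.37% in VC and 1.40% in TNFα held DCN, LUM and PDGFRA UMIs together, against 1.35% and 0.699% of depth-matched cells. The rules for podocytes, skeletal muscle and stroma were met by none of 196 VC gated cells (77.8%) and 346 TNFα gated cells (80.7%). These shares were not particular to gated cells. No rule was met by 75.6% and 72.8% of depth-matched cells and by 83.9% and 82.7% of all other cells. In the gated cells that met no rule, TAGLN stood at 1311 and 1478 CPM and MGP at 339 and 211 CPM. These levels are above those of all gated cells in both libraries. This selection was made after the data were seen.

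Gated cells with and without an ACTG2 UMI are given side by side. This split was chosen after the values were seen, ACTG2 is a gate gene, and a cell without it had to pass by 2 other companions, so the values are a description of how the gate was met and support nothing. In VC, 181 gated cells had ACTG2 and 71 did not, at median depths of 11562 and 20604 UMIs. In TNFα, the numbers were 305 and 124, at 7001 and 7045 UMIs. TAGLN had 1966 CPM with and 172 CPM without ACTG2 in VC, and 1713 and 360 CPM in TNFα, which is 11.4-fold and 4.75-fold. The level without ACTG2 was near that of all other cells, 156 and 314 CPM. CNN1 had 59.9 against 4.02 CPM in VC and 46.9 against 11.4 in TNFα. PLN had 60 UMIs with ACTG2 and 0 without in VC, and 92 against 3 UMIs in TNFα. With the count of 0 set to 3 counts over the group, the VC ratio was 17.4, and the lower limit of its exact interval was 13.7. NNMT had 212 against 3 UMIs in VC and 158 against 3 in TNFα. The median contractile share per 10000 UMIs was 79.8 with and 40.8 without ACTG2 in VC and 86.7 and 50.7 in TNFα. NPHS1, which encodes nephrin of the podocyte slit diaphragm, ran the other way, with 32.7 against 102 CPM in VC and 18.02 against 73.8 in TNFα. PODXL, podocalyxin, had 85.2 against 360 and 92.0 against 115 CPM.

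**Figure D3:**
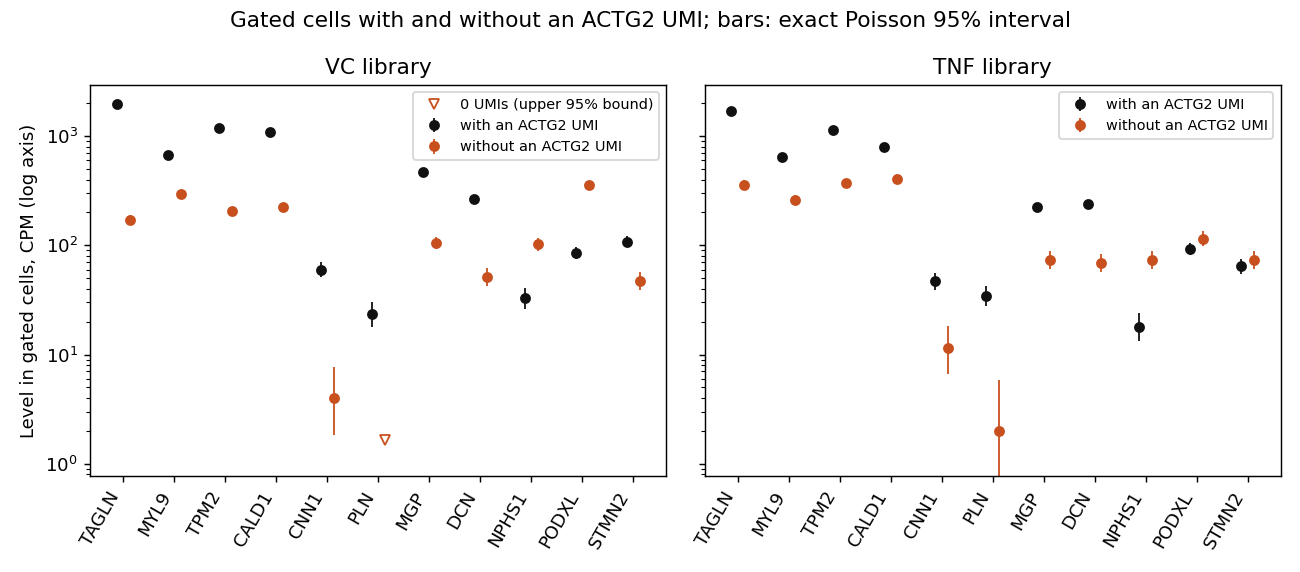
Levels in CPM (y axis, log scale) of 11 genes in gated cells with an ACTG2 UMI (black) and without (orange) in the VC and TNFα libraries, with exact Poisson 95% intervals. TAGLN, MYL9, TPM2, CALD1, CNN1, PLN, MGP and DCN are higher with ACTG2 in both libraries, and NPHS1 and PODXL are lower.

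Over all gated cells, NPHS1 stood at 64.9 CPM in VC against 63.8 in other cells and 38.0 against 68.2 in TNFα. The podocyte rule was met by 41 of 252 VC gated cells (16.3%) and 48 of 429 TNFα gated cells (11.2%), against 17.6% and 19.8% of depth-matched cells. A score that Scrublet gives for doublets, which are droplets with 2 cells, was in the top 10% of the library for 21.4% of VC gated cells, 14.9% of VC depth-matched cells and 9.76% of all other VC cells. In TNFα these shares were 3.73%, 5.04% and 10.1%. The part of doublets in these values was not tested, and without the cells of the top 10% the log2 ratio of TAGLN in gated over other cells was 3.02 in VC and 1.99 in TNFα.

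The comparison of TNFα with VC gated cells asks how these cells answered the cytokine. Of 11364 genes with at least 50 UMIs over the gated cells of both libraries, 210 (1.85%) were at least 2-fold higher in TNFα and 217 (1.91%) at least 2-fold lower. The median gene was at a log2 ratio of -0.07 in gated and in other cells. The receptor TNFRSF1A was seen in 57.1% of VC and 42.2% of TNFα gated cells, at 57.4 and 66.0 CPM, and TNFRSF1B in 1.98% and 1.63%. Of the 30 listed NF-κB target genes, 20 had 50 UMIs over both libraries, some only through the TNFα library (UBD, CXCL10, ICAM1 and CXCL1 among them), so the count and median that follow are a description and support nothing. Of these 20, 18 were past the fold and higher and none was lower, with a median log2 ratio of 2.81, beside 2.76 for the same genes in all other cells. CCL2 (ENSG00000108691, chromosome 17, 34255274 to 34257208), the monocyte chemoattractant MCP-1, was the most abundant, at 44.7 CPM in VC and 1752 CPM in TNFα gated cells. It was seen in 27.8% and 93.2% of them, and the ratio of 39.2 (34.2 to 45.1) lay beside 40.1 (38.6 to 41.6) in other cells. The adhesion molecules followed: VCAM1 went from 29.5 to 373 CPM (12.6-fold, 10.6 to 15.1) and ICAM1 from 2.91 to 65.5 CPM (22.5-fold, 13.2 to 41.7). The feedback inhibitors NFKBIA and TNFAIP3 were at 72.4 and 2.29 CPM in VC and at 480 and 43.8 CPM in TNFα, which is 6.63-fold and 19.2-fold. IL32 was at 64.9 and 849 CPM, 13.1-fold (11.7 to 14.7) in gated and 23.2-fold (22.3 to 24.2) in other cells, and its VC level in other cells was 23.8 CPM. The 2 listed genes that stayed under the fold were SOD2 and IER3, at ratios of 1.34 and 1.87.

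**Figure D4:**
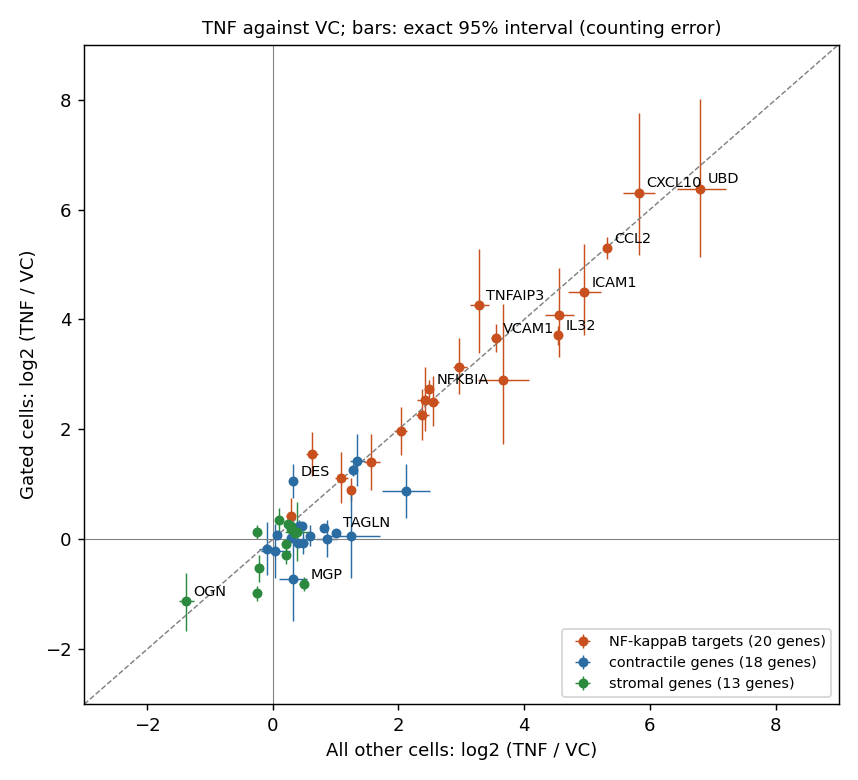
log2 ratio of TNFα over VC in gated cells (y axis) against the same ratio in all other cells (x axis), 1 point per gene, with exact 95% intervals for counting error and a dashed line where both are equal. The NF-κB target genes (orange, 20 genes) lie on both sides of the line with a median of 2.81 in gated cells, and the contractile genes (blue, 18 genes) have a median of 0.08, and the 13 stromal genes are green.

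The plot of the TNFα response shows target genes on both sides of the line of equal ratios, with IL32 below it and TNFAIP3 (19.2 against 9.74) above it, and the differences between gated and other cells were not tested. The largest ratios were those of FDCSP (ENSG00000181617, chromosome 4, 70226124 to 70235252), a secreted peptide of follicular dendritic cells, from 5 to 2130 UMIs, and UBD, a ubiquitin-like protein, from 5 to 360 UMIs. The FDCSP ratio was 493 (211 to 1521) in gated and 489 (364 to 673) in other cells, and 51.0% of TNFα gated cells held a UMI of it. The chemokines CXCL10 (6 to 411 UMIs), CXCL6 (2 to 72) and CXCL1 (15 to 218) had ratios of 79.3, 41.7 and 16.8. SFRP4, a secreted modulator of Wnt signals, had a ratio of 36.6 (17.4 to 92.0) in gated and 13.2 (11.6 to 15.2) in other cells, and IL34, a ligand of the CSF1 receptor, 22.0 (13.1 to 39.8) and 12.5 (11.3 to 13.9). BCL2A1, PSMB9, TNFRSF4 and LRRC55 were also among the 15 largest, with ratios of 22.2, 19.7, 19.4 and 13.3. The TNFRSF4 ratio was lower in gated cells (12.2 to 32.7) than in other cells, at 47.1 (41.0 to 54.4), and this difference was not tested. HBD, a globin gene, was also among the 15 at 14.0-fold, but a single cell held 90.7% of its TNFα UMIs, so that value belongs to 1 cell. CXCL8 had 0 UMIs in VC and 33 in TNFα gated cells, a ratio of 12.7 with the VC count set to the floor of 3 counts.

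Genes of antigen presentation that interferon also raises are described next in TNFα and VC gated cells. Of 15 such genes with enough UMIs, some (such as PSMB9) passed only through the TNFα library. The counts and median that follow are therefore a description and support nothing. Past the fold, 1 (IFIT1) was lower and 8 were higher, beside 1.91% and 1.85% of all genes tested. Among the 8 were GBP1, PSMB8, PSMB9, TAP1, HLA-B, HLA-C and B2M. The median log2 ratio was 1.04 in gated and 1.06 in other cells. HLA-B went from 15.6 to 103 CPM and B2M, the light chain of class I molecules, from 443 to 990 CPM. IFIT1, a classical interferon target, was at 10.6 CPM in VC and 5.30 in TNFα gated cells.

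Contractile genes had a median near 0 between TNFα and VC gated cells, with members that were apart. The median log2 ratio of the 18 genes was 0.08 in gated cells and 0.48 in all other cells, and 3 of 18 were past the fold and higher, DES, SYNPO2 and CSRP1, beside 1.85% of all genes tested. PLN stood at 12.5 and 22.9 CPM (1.83-fold, 1.31 to 2.58). TAGLN stood at 1132 CPM in VC and 1228 in TNFα gated cells (1.08-fold, 1.04 to 1.13), and its direction turned in gated cells with ACTG2, at 1966 and 1713 CPM, and in those with 3 or more companions, at 865 and 787 CPM. In other cells it stood at 156 and 314 CPM (2.01-fold, 1.97 to 2.05). CNN1 was at 33.9 and 34.2 CPM in gated cells and at 5.18 and 9.38 in other cells. CSRP1, a LIM protein of smooth muscle, went from 202 to 482 CPM in gated cells (2.39-fold, 2.21 to 2.58) and by 2.42-fold in other cells. DES, the muscle intermediate filament desmin, went from 27.7 to 57.5 CPM in gated cells (2.08-fold, 1.68 to 2.59) and by 1.26-fold in other cells. Because gated cells were chosen for an ACTA2 UMI in each library, the share of gated cells with ACTA2 could not change. The ACTA2 level of gated cells, 727 CPM in VC and 783 in TNFα, is a description only. In the 124 TNFα and 71 VC gated cells without ACTG2, the contractile median was 0.74, and in those with ACTG2 it was -0.12. Whether the ratios of gated and other cells differ was not tested.

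Several of the genes lowest in TNFα against VC gated cells were held by few cells. CA4, a carbonic anhydrase, had 118 UMIs in VC and 9 in TNFα gated cells, a ratio of 0.0883 (0.0394 to 0.173) beside 0.472 in other cells. It was seen in 8.33% of VC gated cells, and 26.3% of its VC UMIs were in 1 cell. The other 9 of the 10 lowest ratios were those of LAMB4, AC018647.1, TNMD, SERPIND1, MYOM1, GFRA3, ANKRD37, MT1H and LEFTY1, between 0.114 and 0.223. For MYOM1 and MT1H a single VC cell held 79.7% and 70.1% of the UMIs. ANKRD37, a target of hypoxia signaling, was spread over 48 VC cells and no cell held over 6.41% of it, and its ratio of 0.208 (0.109 to 0.370) lay beside 0.246 in other cells. Among the fixed lists, FOXD1, the transcription factor of renal stroma, went from 55.5 to 17.6 CPM in gated cells and stayed at 49.1 and 49.2 CPM in other cells. OGN, a stromal proteoglycan, went from 23.1 to 10.6 CPM. The podocyte genes PODXL and CLIC5, the tubular transporter gene SLC3A1 and the mitotic kinase gene PLK1 were also past the fold and lower. The myogenic genes MYOD1, MYOG and ACTA1 were past the fold and higher, MYOG from 43 UMIs in 2.38% of VC gated cells to 130 UMIs in 8.86% of TNFα gated cells. The skeletal muscle rule was met by 5.56% of VC and 9.09% of TNFα gated cells, beside 9.05% and 9.18% of depth-matched cells, and the part of such cells in these values was not tested.

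Whole organoids gave the only replicated measurement of the same genes, over days 21 to 29 of culture. Set 2 was read for the gate genes and for the 15 genes highest in gated cells, with limma on log2(CPM + 1) and Benjamini-Hochberg adjustment over all 27650 genes of the table. Nothing in the labels says that the 2 libraries of a day came from separate cultures, so the p-values measure only the spread between these libraries, which may be technical. In bulk RNA, fewer cells of a type and less RNA per cell cannot be told apart, and these genes are not made by gated cells alone. Of all genes, 2778 (10.0%) were called higher on day 29 than on day 21 and 2303 (8.33%) lower, and the median log2 difference was -0.02. ACTA2 read 4.37 and 3.64 on day 21, 6.77 and 6.82 on day 25 and 6.93 and 7.18 on day 29. All day 25 and day 29 libraries lie above both day 21 libraries. The day 29 minus day 21 difference was 3.05 ± 0.20 (SE, log2 scale, n = 2 per day, limma adjusted p = 0.000127). ACTG2 read 1.97 and 0.94 on day 21 and 3.88 and 4.48 on day 29, and rose by 2.72 ± 0.32 (SE, limma adjusted p = 0.0011). GJA4 rose by 1.12 ± 0.17 (limma adjusted p = 0.00368) and RGS5 by 0.96 ± 0.22 (limma adjusted p = 0.0189). ESAM read 5.30 and 5.38 on day 21 and 4.36 and 4.27 on day 29, and fell by 1.02 ± 0.08 (limma adjusted p = 0.000248). NOTCH3 read 9.16 and 9.31 on day 21 and 9.34 and 9.48 on day 29 and did not pass (difference 0.17 ± 0.09, limma adjusted p = 0.264). In set 1, with 1 library a day, ACTA2, ACTG2, NOTCH3 and ESAM had the same sign, while GJA4 (-0.35) and RGS5 (-0.58) had the opposite sign.

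**Figure D5:**
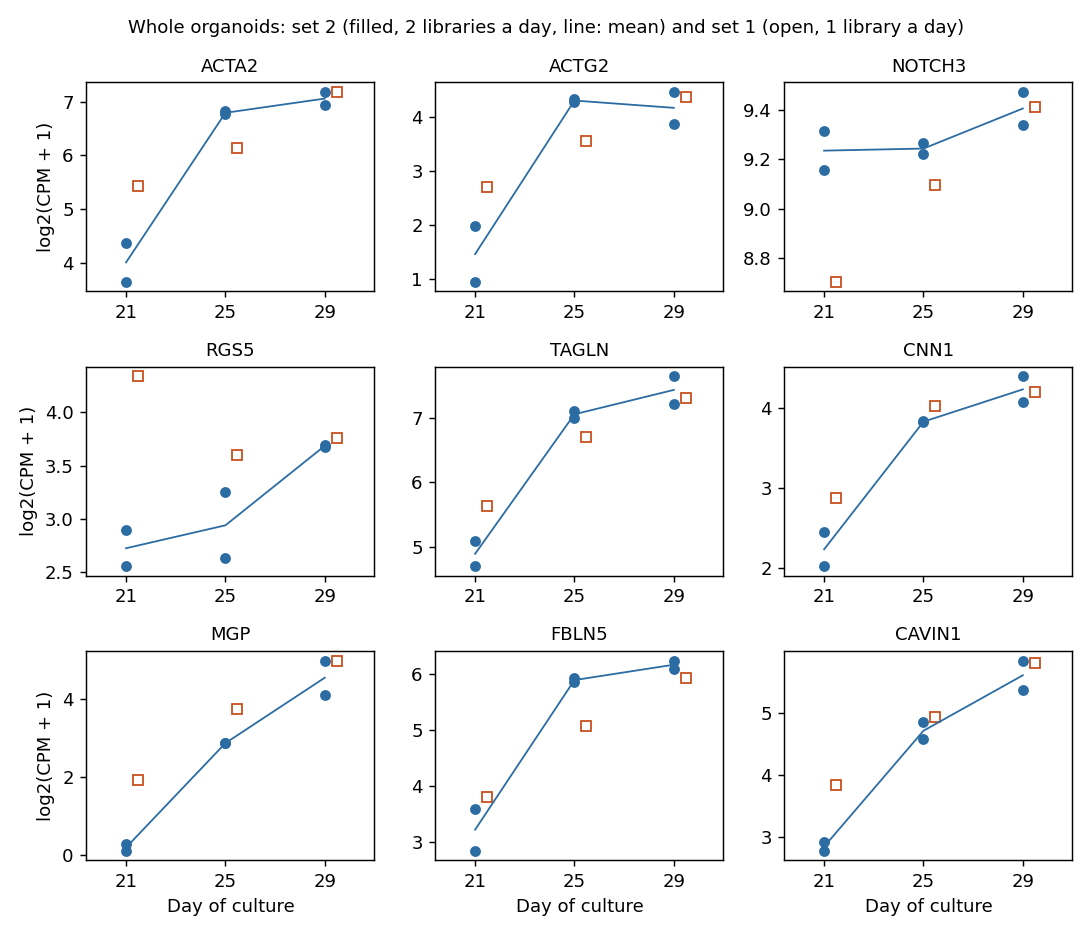
Deposited log2(CPM + 1) (y axis) against day of culture (x axis) for 9 genes in whole organoids, filled points for the 2 libraries a day of set 2 with a line through their mean, and open squares for the single libraries of set 1, which was normalized separately. ACTA2 rises from 4.003 on day 21 to 7.06 on day 29 in the mean of set 2, and RGS5 reads 4.34 on day 21 and 3.76 on day 29 in set 1 and 2.72 and 3.69 in the means of set 2.

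Of the 15 genes named as highest in gated cells (by the same minimum of 50 UMIs), 9 were called higher on day 29 in set 2 and 1 lower. TAGLN read 5.08 and 4.69 on day 21 and 7.22 and 7.65 on day 29, and rose by 2.55 ± 0.16 (SE, limma adjusted p = 0.000105). MGP read 0.10 and 0.26 on day 21, 2.86 and 2.85 on day 25 and 4.10 and 4.97 on day 29, the largest rise of the 15, by 4.35 ± 0.26 (SE, limma adjusted p = 9.88e-05). FBLN5, CAVIN1, CNN1, SUCNR1, KCNMB1, PLXDC1 and CYTOR rose by 2.94, 2.76, 1.99, 1.76, 1.42, 1.40 and 0.88. BDNF fell by 1.09 ± 0.24 (SE, limma adjusted p = 0.0164). PLN, NNMT, PHLDA2, ANKRD1 and MIR4435-2HG did not pass. ANKRD1 was at the threshold (limma adjusted p = 0.0504) and passed in 8 of 12 alternatives, and PLN, NNMT and PHLDA2 read below 1 in all 6 libraries. RGS5, CYTOR and BDNF lost their call when either day 21 library or the second day 29 library was left out, and the RGS5 adjusted p then reached 0.133. Beside the 10.0% of all genes called higher and 8.33% called lower, 13 of the 18 contractile genes were called higher and LMOD1 lower, with a median difference of 0.78, and of the 13 stromal genes 11 were called higher, with a median of 1.43. Which cells carried these differences was not tested. Of the 10 pericyte genes in the table, 5 were called higher and NDUFA4L2 and RGS4 lower. RGS4 was called in 7 of 12 alternatives, and MYL6, MYLK, FLNA, CSPG4, ABCC9, FBLN1 and MEIS2 in 9 to 11.

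The bulk TNF set gave 1 library per condition and time, and no test was run on it. RGS5 read 3.26 in VC and 4.82 in TNFα at 24h and 3.16 and 4.82 at 48h. ACTA2 read 6.54 and 7.49 at 24h and 6.43 and 6.79 at 48h, and GJA4 read 2.31 and 1.72 and then 2.21 and 1.09. TAGLN read 6.87 and 7.67 at 24h and 6.70 and 7.11 at 48h. MYH11 read 0.92 and 2.95 at 24h and 0.93 and 2.24 at 48h. CCL2 read 3.32 and 7.62 at 24h and 3.39 and 7.23 at 48h, and FDCSP read 0.21 and 4.48 and then 0.35 and 3.50. Of the 18 contractile genes, 12 were higher with TNFα at both times, 4 were lower at both (MYL9, MYL6, SMTN and DES) and 2 were mixed. Of all 21093 genes of that table, 28.6% were higher at both times and 39.7% lower. DES differed by -0.04 at 24h and -0.27 at 48h and MYL9 by -0.29 and -0.54, and there is no replicate error to set the differences against.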

How the data were processed

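The authors deposited UMI counts per gene and barcode for the 10x Genomics 3′ v3 libraries. The matrix header names Cell Ranger 6.0.1 and the labels name 2.1.1, with hg19 and hg38 both listed, and coordinates here are GRCh38 (GENCODE 44). The day 25 control single-cell library was not analysed here. The authors deposited bulk values as log2(CPM + 1), made with STAR 2.7.8a and HTSeq 0.11 per the labels. Whole reads were recovered from the bulk values in 100% of cases (within 0.01 reads), with depths of 19073609 to 30282025 reads in set 2. Tables were normalized separately and compared only within a table.

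UMIs were summed over the cells of a group and scaled to CPM with exact Poisson 95% intervals. Ratios have exact conditional binomial intervals, shares have exact Clopper-Pearson intervals, and all cover counting error only. Genes needed 50 UMIs over the cells compared, a called gene was 2-fold apart (for gated against other cells in both libraries), and a count of 0 was set to 3 counts over the group. No chance test was made on cells. Set 2 was fitted with limma 3.58.1 in R 4.3.3, 1 mean per day, over all genes. edgeR 4.0.16 and DESeq2 1.42.0 on recovered reads were alternatives, and edgeR called 3234 genes higher and 2318 lower. Python 3.11.15, scanpy 1.11.5 and scipy 1.17.1 were used, and the steps were tested on simulated data. Scrublet calls ran from 0 to 4555 cells over 5 settings and seeds, so doublets were kept, and the 10% of cells with the highest scores were left out in an alternative chosen after these calls were seen.

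The members and gene lists were chosen with earlier results of these data known. Named genes were the gate genes, the members of each list with the most UMIs or past the fold, the 15 highest and 10 lowest against other cells (by the weaker ratio of both libraries, the highest with at least 50 UMIs in the gated cells of each), the 15 highest and 10 lowest in TNFα against VC, and the list genes with a promoter motif and the most UMIs. Other genes named were chosen after their values were seen. Alternatives changed the gate, the depth, the UMI minimum, the fold, doublets, scaling and replicates. Some list members are not reported here.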

Additional observations from a re-analysis of the deposited data

Results flagged for a closer look

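MGP and TUBB3 were each apart because the TNFα over VC ratio went one way in gated cells and the other way in all other cells. The ratio of MGP was 0.568 (0.519 to 0.622) in gated cells and 1.40 (1.34 to 1.47) in other cells. The ratio of TUBB3, a neuronal tubulin, was 1.35 (1.26 to 1.46) in gated cells, from 284 to 385 CPM, and 0.601 in other cells, from 891 to 536 CPM. With 1 library per condition, neither difference was tested.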

How the results depend on the processing

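The share of gated cells was 0.302% in VC and 0.212% in TNFα with 3 or more companions, 1.47% and 1.31% with at least 2 ACTA2 UMIs, 0.119% and 0.19% at 1500 UMIs, and 1.85% and 1.98% without the cells of the highest Scrublet scores, where VC was no longer the higher. Of genes higher in gated cells, 77 became 598 with 3 or more companions, 145 with 2 ACTA2 UMIs, 127 against depth-matched cells, 277 at 1.5-fold, 38 with at least 50 UMIs in the gated cells, 128 in cells that met no comparator rule, 154 with ACTG2 and 339 without. Of the 77, 44 were shared with the depth-matched call and 9 with cells lacking ACTG2. The 459 lower genes became 142 against depth-matched cells, 1233 at 1.5-fold and 19 with 50 gated UMIs. For TNFα over VC, 210 higher became 115 with 3 or more companions, 62 when thinned, 134 at a minimum of 100 UMIs, 395 at 20 and 552 at 1.5-fold, and 217 lower became 28, 118, 497 and 925 for the last 4 and 142 in cells that met no rule. When thinned, 24 of the 210 and 4 of the 217 were shared. The rules on 50 gated UMIs, comparator rules, ACTG2 and Scrublet scores were chosen after seeing the data, and the planned Scrublet call was not run because its calls were unstable.

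Without ACTG2, log2 ratios to other cells turned negative in VC for NNMT (-1.86), ANKRD1 (-0.94), PLXDC1 (-0.24), CNN1 (-0.36), CAVIN1 (-0.92) and FBLN5 (-1.42), and in TNFα for PLN (-0.69), NNMT (-1.59), PHLDA2 (-0.68), KCNMB1 (-0.044), ANKRD1 (-0.58), PLXDC1 (-0.95), SUCNR1 (-0.22) and FBLN5 (-0.048), while INHBE (0.16) and AC073957.3 (0.45) turned positive. With 3 or more companions INHBE (0.79) and AC073957.3 (0.59) reversed in VC, and BDNF (-0.71), MAB21L2 (0.54), INHBE (0.88), AL031666.3 (1.10) and AC073957.3 (1.17) in TNFα. The causes were not tested. None of the 25 TNFα over VC ratios named as highest or lowest reversed, but that of TAGLN turned below 1 in gated cells with ACTG2 (1966 and 1713 CPM).

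In the bulk set, leaving out 1 library gave 1398 to 2964 genes called higher and 960 to 2453 called lower. Without D21 replicate 1 and 2 there were 1571 and 1398 higher and 964 and 960 lower. The replicate block gave 3149 higher and 2907 lower. Same-numbered libraries correlated at 0.143, 0.0753 and 0.270 between days, not all above 0.1, so the libraries were treated as sharing only a number. Under the block ANKRD1 was called (adjusted p = 0.0423). Median centring gave 2408 higher and 4667 lower calls and moved the share of higher calls from 54.7% to 34.0% and the median of all genes from -0.02 to -0.12.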

Other observations

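COL4A1, a basement membrane collagen chain, had 311 against 111 CPM in VC gated and other cells and 342 against 188 CPM in TNFα, while the 12 basement membrane genes had median log2 ratios of 0.47 and -0.05 and none was past the fold. Against depth-matched cells COL4A1 was past the fold, at 2.58 in VC and 2.00 in TNFα, beside 127 of all genes. Of 13 TGF-β response genes with enough UMIs, CCN1 and INHBA were past the fold and higher, beside 0.456% of all genes tested. CCN1 was at 42.8 against 12.1 and 60.2 against 26.7 CPM and INHBA at 40.3 against 7.29 and 36.8 against 14.6 CPM. FOXS1, a forkhead factor of mural cells, was the only one of 13 mural transcription factors past the fold, beside the same 0.456%, at 22.7 against 4.29 and 28.65 against 11.99 CPM. The list as a whole was not higher in gated cells. In both libraries 7 of the 13 factors were below 1 and 3 were above 1, with median log2 ratios of -0.08 and -0.18. EDNRA, the endothelin A receptor, was the most abundant of the vasomotor genes, at 80.1 against 39.2 and 43.6 against 33.2 CPM, and none of the 13 with enough UMIs was past the fold. Against depth-matched cells 2 vasomotor genes were past it, beside the same 127 of all genes, EDNRA (3.82 in VC and 2.00 in TNFα) and GUCY1A1 (2.84 and 2.29). Of the 12 Notch genes DLL1, a ligand, was past the fold and lower, beside 2.72% of all genes tested, at 3.95 against 8.51 and 1.44 against 4.21 CPM. The 8 proliferation genes had median log2 ratios of 0.29 and 0.13 with none past the fold, the 7 podocyte genes -0.17 and -1.17, the 6 proximal tubule genes 0.20 and -0.21, the 3 cardiac genes -0.83 and -0.94 and the 7 mesangial list genes 0.18 and 0.30, also with none past the fold. Against depth-matched cells 1 gene of the mesangial list was past the fold and higher, beside the same 127 of all genes. The 6 TNF receptor genes had 0.23 and 0.28, the 25 NF-κB targets 0.14 and 0.33, and of 16 interferon genes GBP1 was past the fold and higher, beside the same 0.456%.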
